A study of Mus musculus with 8 samples.

Results

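Histone variants that replace or supplement the canonical histones in male germ cells were followed in the RNA of germ cells from 15-day-old mice with and without *Mgat2*. The group holds 8 genes of 55357 in the deposited table, found there by gene symbol and not by any measured value. They are the linker histones *H1f6* (H1t), *H1f1* and *H1f0*, the testis histones *H2ac1* (TH2A) and *H2bc1* (TH2B), *H2ax*, and the H3.3 genes *H3f3a* and *H3f3b*. All 8 reached a TPM of 1 (transcripts scaled for length and library size) in 1 sample or more and entered the test with 20187 genes. *H2ac1* did so on very few reads, as given with its values.

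Control mice carried floxed *Mgat2* alleles only (*Mgat2*[F/F]), and conditional knockout (cKO) mice carried the same floxed alleles with the *Stra8*-iCre transgene, which is active from the spermatogonial stage onward. Each genotype had 4 samples, both genotypes were C57BL/6, and each library came from the enriched germ cells of 1 mouse. MGAT2 is the Golgi enzyme that adds the second-branch GlcNAc needed for complex N-glycans. The Cre acts in germ cells alone, so somatic cells left in a preparation kept *Mgat2*.

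Nucleosomes wrap DNA around pairs of H2A, H2B, H3 and H4, and a linker histone of the H1 family binds where DNA enters and leaves. Most canonical histones are made during DNA replication from mRNAs that end in a stem-loop and carry no poly(A) tail, whereas replacement variants such as H3.3 are made throughout the cell cycle from polyadenylated mRNAs. In the testis, H1t, TH2A and TH2B accumulate in spermatocytes, and H2AX is phosphorylated over unpaired chromatin and the sex chromosomes in meiosis before protamines replace most histones in elongating spermatids.

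The 3′ ends of the members are shown because the libraries were selected for poly(A), so how an mRNA ends bears on whether its reads were captured. The histone stem-loop was searched on the transcribed strand within 300 genomic bases after the stop codon, as GG, any 2 bases, CTTTT, any base, AG, any 2 bases and CC. It was found in 5 of 8 members, in 53 of 60 replication-dependent histone genes (88.3%) and in 68 of 21770 protein-coding genes (0.312%). The matches are in capitals within 30 bases of GRCm39 sequence, and they lie at chr13:23880508-23880523 (forward) for *H1f6*, chr13:23948375-23948390 (forward) for *H1f1*, chr13:24118874-24118889 (forward) for *H2ac1*, chr13:24117713-24117728 (reverse) for *H2bc1* and chr9:44246537-44246552 (forward) for *H2ax*.
H1f6: acccaaaGGCTCTTTTAAGAGCCacttaca
H1f1: acccaacGGCTCTTTTCAGAGCCaccaaca
H2ac1: acaaaaaGGCTCTTTTCAGAGCCaccttca
H2bc1: acccaaaGGCTCTTTTAAGAGCCacccacc
H2ax: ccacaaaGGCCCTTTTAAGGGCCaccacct

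The first base of the stem-loop lay 28 to 47 bases after the stop codon, nearest in *H2bc1* and farthest in *H2ax*. The stem of *H2ax* differs from the other 4, which share the same left arm. No match was found for *H1f0*, *H3f3a* or *H3f3b*, which says only that these letters are not in the window. The poly(A) signal AATAAA was found in the last 40 bases of the canonical transcript of *H1f6*, *H1f0* and *H3f3a*, that is 3 of the 6 members whose transcript model runs past the stop codon. The models of *H2ac1* and *H2bc1* hold coding sequence only, so their 3′ ends could not be searched for it. The signal was found in 54.6% of protein-coding genes and 18.3% of replication-dependent histone genes, with genes whose models end at the stop codon counted as lacking it. The canonical transcript of *H3f3a*, 1 of 32, is 4674 bases long. Its counts divided by its TPM imply an effective length of only 724 to 788 bases. The end searched for *H3f3a* therefore need not be that of most of the RNA counted.

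**Figure D1:**
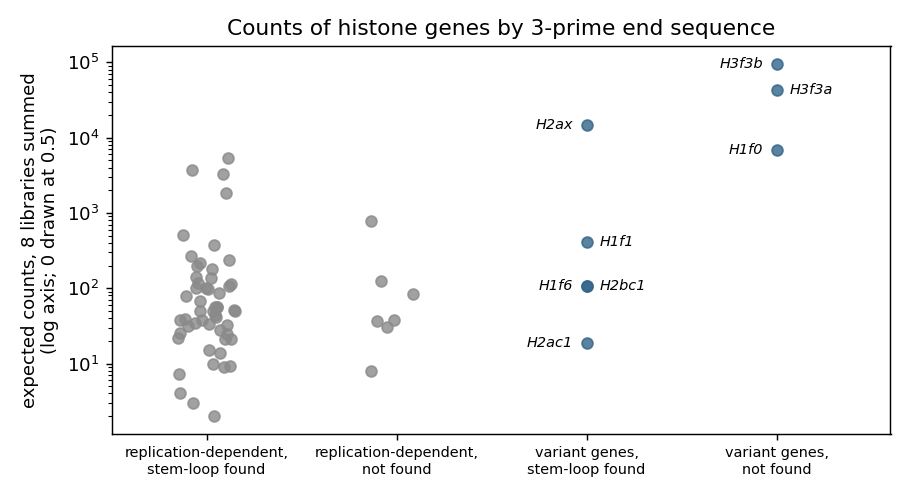
Expected counts summed over the 8 libraries (log axis) of replication-dependent histone genes (grey) and the members (blue), in columns by whether the stem-loop was found; each point is 1 gene, and *H1f6* and *H2bc1* share a point at 107. *H2ax* has the highest sum of the histone genes shown with a stem-loop, 14615 counts, against at most 5299 for a replication-dependent histone (*H2ac19*). Counts are not scaled for length. The mean TPM over the 8 libraries was higher for *H2ac19* (315) than for *H2ax* (178).

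Counts followed these classes only in part. The 3 members without a stem-loop had 6883 (*H1f0*), 42341 (*H3f3a*) and 96106 (*H3f3b*) counts summed over the 8 libraries. *H2ax* reached 14615 with a stem-loop and no AATAAA found. The 47 replication-dependent histone genes with that same pair of features had a median of 50.2 and a maximum of 5299. *H1f1*, *H1f6* and *H2bc1*, with 411, 107 and 107 counts, lay above that median and under that maximum. *H2ac1*, with 19 counts, lay below both. *H1f6* differs from that class in having an AATAAA. No AATAAA was found for *H3f3b* either, despite its 96106 counts, so a missing match does not show that an mRNA lacks a tail. The *H2ax* stem-loop ends at base 44246552 of chromosome 9, and its gene model runs on to base 44247374. Whether the *H2ax* reads came from RNA that ends at the stem-loop or beyond it was not tested. Poly(A) selection undercounts transcripts without a tail, so a low count of a stem-loop gene is not a measure of how much of its mRNA the cells held.

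Per length, the H3.3 genes led the group, and *H1f6* and *H2ac1* closed it. In control samples the mean TPM was 854 ± 56.6 (SD, n = 4) for *H3f3b* and 751 ± 74.6 for *H3f3a*, at percentiles 99.4 and 99.3 of the tested genes. *H2ax* followed at 196 ± 16.9 and *H1f0* at 48.8 ± 7.24. The rest had a mean TPM of 16.7 ± 11.6 (*H2bc1*), 11.4 ± 3.96 (*H1f1*), 2.27 ± 1.06 (*H1f6*) and 1.57 ± 1.88 (*H2ac1*). The control ranges of *H3f3b* and *H3f3a* overlapped, as did those of *H2bc1* and *H1f1* and those of *H1f6* and *H2ac1*, so the spread between mice did not separate these neighbours by range, although *H3f3b* stood above *H3f3a* within each of the 8 libraries. The cKO samples gave the same order of mean TPM, except that *H2ac1* (4.29 ± 3.03) stood above *H1f6* (2.32 ± 1.44), again with overlapping ranges.

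**Figure D2:**
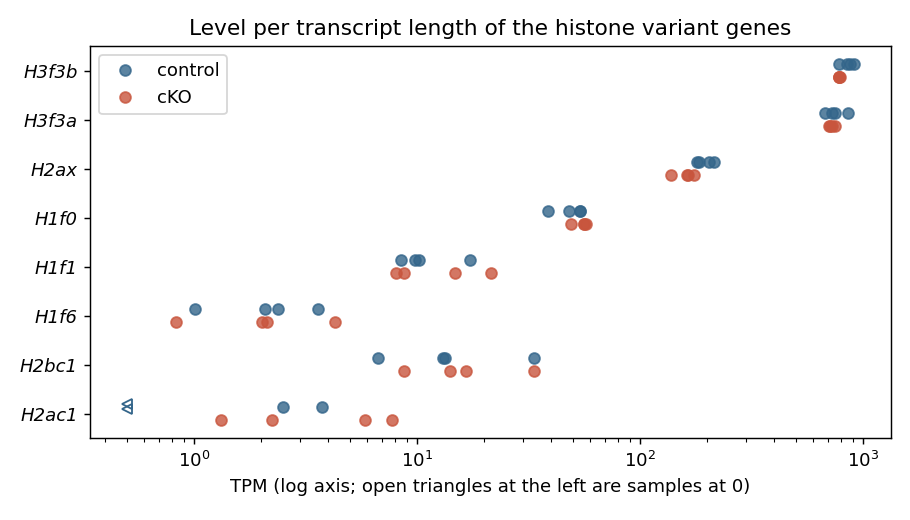
TPM of the 8 members (log axis) in the 4 control (blue) and 4 cKO (red) samples; each point is 1 mouse, and open triangles at the left edge are the 2 control samples in which *H2ac1* was at 0. *H3f3a* and *H3f3b* lie between 678 and 914 TPM in all 8 samples, and *H1f6* and *H2ac1* lie lowest.

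The TPM of *H2bc1* and *H2ac1* rest on short gene models. Both genes have 1 exon that holds coding sequence only, 384 bases for *H2bc1* (chr13:24117756-24118139, reverse, GRCm39) and 390 bases for *H2ac1* (chr13:24118445-24118834, forward), and their stem-loops lie outside these models. The count divided by the TPM implies an effective length of 73.1 to 93.9 bases for *H2bc1* and 81.3 to 99.5 bases for *H2ac1*, against 1068 to 1092 bases for *H2ax*. A mean of 16.7 TPM for *H2bc1* thus stood for only 5 to 24 reads in a control library.

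The genotype labels were checked on *Mgat2* before the members were compared. Values of single samples are given in the order of their replicate numbers. *Mgat2* measured 69.8, 31.8, 64.3 and 59.8 CPM (counts scaled to library size with TMM, the trimmed mean of M-values) in the controls and 35.3, 20.1, 37.6 and 16.03 CPM in the cKO mice. The group means differed by a log2 fold change of −1.05 ± 0.36 (SE; edgeR quasi-likelihood, adjusted p = 0.470), and control replicate 2 lay within the cKO range. Library totals ran from 12584726 to 15907505 counts, so 3 counts in a library corresponded to 0.189 to 0.238 CPM. Across all tested genes edgeR called 8 genes at an adjusted p under 0.05, all lower in cKO (0.0396% either way, 0.0396% lower and 0% higher), and DESeq2 called 304 (1.51%). An unadjusted p under 0.05 was reached by 8.90% of tested genes, 6.28% lower and 2.62% higher in cKO. In 3.03% every cKO sample lay below every control sample and in 2.47% above, 5.50% together.

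Levels of cell type markers are given here because pachytene marker RNA differed among the samples, as its values show. The summed TPM of 10 pachytene spermatocyte markers was 3235, 1325, 1682 and 1045 in the controls and 1087, 579, 583 and 553 in the cKO mice. Replicate 1 was the highest of its genotype, and 9 of the 10 markers had a lower mean in cKO. The median log2 fold change of the 10 was −1.32. Without a replicate block edgeR called 0 of the 10 (4 with an unadjusted p under 0.05), and DESeq2 called 1. With the replicate number as a block, a fit that called 7.25% of all tested genes, edgeR called 6 of the 10 markers, all lower in cKO. Results of edgeR for gene lists are from the fit without the block unless the block is named. The 10 early meiotic markers summed to 821 to 1260 TPM in control and 814 to 1063 TPM in cKO samples.
Markers of Sertoli cells, the somatic cells of the tubule, were also abundant, at 6003 to 7402 TPM in control and 6242 to 7385 TPM in cKO samples, while 6 Leydig cell markers summed to 35.9 to 89.7 and 48.6 to 73.8 TPM. Fewer cells of a type and less RNA per cell cannot be told apart in these bulk libraries, and the part of cell makeup in the histone values was not tested.

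In the edgeR fit without a replicate block none of the 8 members was called between the genotypes, and DESeq2 called none of the 5 members to which it gave an adjusted p. One of 8, *H2ax*, had an unadjusted p under 0.05 and groups that did not overlap, both toward lower values in cKO, against the 6.28% and 3.03% of tested genes given above. The means of 3 members were lower and those of 5 higher in cKO, and the median log2 fold change of the 8 was 0.11, beside 0.01 over all tested genes.

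**Figure D3:**
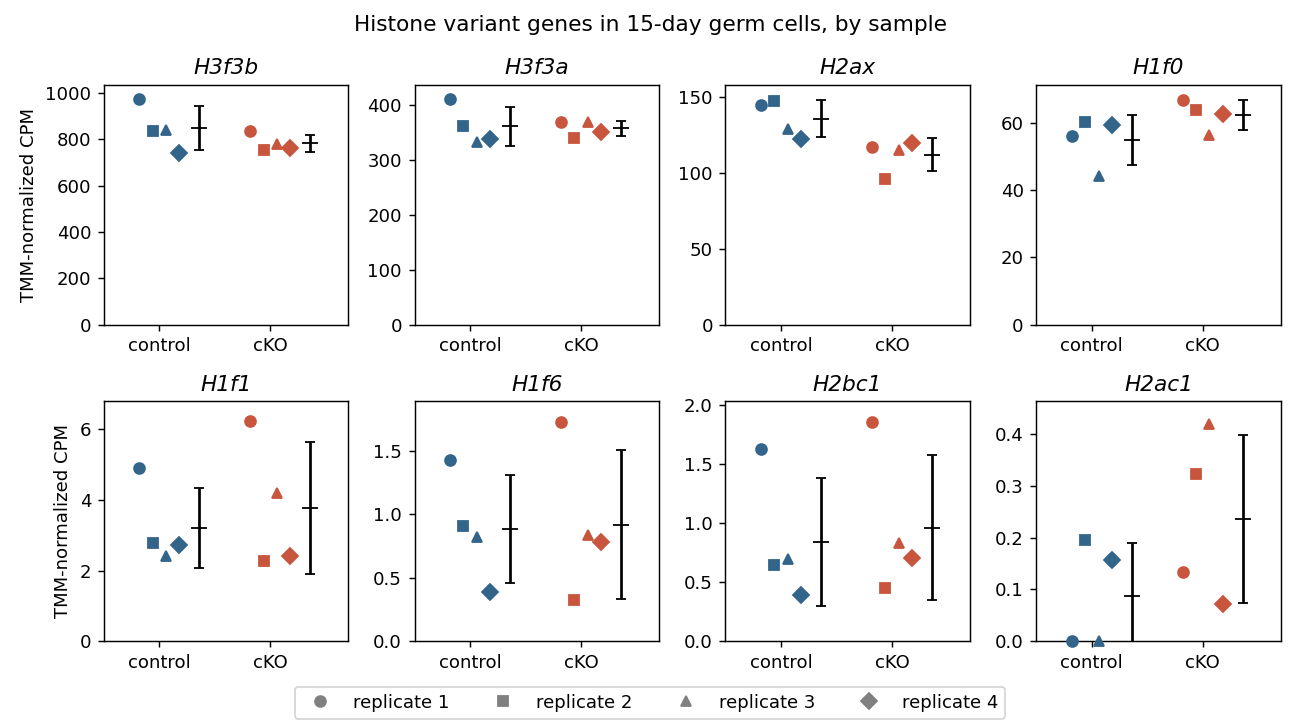
TMM-scaled CPM of each member in control and cKO samples, 1 panel per gene with its own axis from 0; points are mice, marker shapes give the replicate number, and bars are the mean and SD (n = 4), stopped at 0 for *H2ac1*. Only in the *H2ax* panel do the 4 cKO samples all lie under the 4 control samples.

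The linker histone *H1f6* encodes H1t, the testis-specific H1 of spermatocytes, in 1 exon of 912 bases (chr13:23879797-23880708, forward). Its counts were 21, 14, 13 and 5 in the controls and 26, 5, 12 and 11 in the cKO mice. Replicate 1 was the highest of both genotypes and the groups overlapped over nearly their whole range. Mean CPM was 0.886 ± 0.425 (SD, n = 4) in control and 0.917 ± 0.586 in cKO samples, a log2 fold change of 0.04 with a 95% interval from −1.18 to 1.27 (edgeR, adjusted p = 0.995). The summed counts, 53 and 54, gave a depth-scaled ratio of 1.02 with an exact 95% interval of 0.683 to 1.51 that covers counting error only. The lower end of the fitted interval, −1.18, falls little short of the median log2 fold change of the pachytene markers (−1.32), and whether *H1f6* differed from them was not tested.

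*H1f1* encodes H1.1, a replication-dependent subtype that is abundant in spermatogonia and spermatocytes (chr13:23947649-23948389, forward, 1 exon). Its values were 4.89, 2.79, 2.40 and 2.73 CPM in the controls and 6.24, 2.27, 4.19 and 2.41 CPM in the cKO mice, from 34 to 94 counts. As with *H1f6*, the highest sample of each genotype was replicate 1, and the remaining 3 control samples lay close together. The log2 fold change was 0.24 ± 0.36 (SE; 95% interval −0.55 to 1.03; edgeR, adjusted p = 0.878).

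*H1f0* encodes H1.0, the linker histone that accumulates in cells leaving division (chr15:78912650-78914704, forward, 1 exon). It measured 55.9, 60.0, 44.1 and 59.3 CPM in the controls and 66.7, 63.6, 56.3 and 62.6 CPM in the cKO mice. The cKO samples exceeded every control sample except for cKO replicate 3. The log2 fold change was 0.18 ± 0.11 (SE; 95% interval −0.05 to 0.42; edgeR, adjusted p = 0.641), which leaves a fold change of up to 1.33 within the interval. The lncRNA gene *Gm49544* overlaps 163 exon bases of *H1f0* on the other strand and held 14 to 32 counts in control and 6 to 12 in cKO samples. The libraries were not stranded, so reads from the shared bases cannot be told apart, but *H1f0* itself held 698 to 1004 counts.

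Among linker histones as a whole, the members were a minority of the measured RNA. *H1f10*, a replication-independent H1 outside the group, gave 59.9 ± 5.14% of the summed linker TPM in control and 58.4 ± 4.24% in cKO samples (SD, n = 4). The share of *H1f0* was 23.3 ± 3.19% and 24.2 ± 3.63%, that of *H1f1* was 5.34 ± 1.11% and 5.59 ± 1.79%, and that of *H1f6* was 1.06 ± 0.40% and 0.96 ± 0.44%. For *H1f10* and these 3 members, no share differed between the genotypes by more than the SD of either group.

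*H2ac1* and *H2bc1* encode TH2A and TH2B, which are incorporated in germ cells and stay in use until histones are evicted in spermatids. They form a divergent pair on chromosome 13, with 305 bases between the gene models (GRCm39) and 280 bases between the RefSeq starts (GRCm38.p6). The RefSeq promoter table held 7 of the 8 members, with no entry for *H2ax*. The 250 bases before the start of *H2ac1* (chr13:23934187-23934436, forward, GRCm38.p6) are shown because they cover nearly all of the stretch that both genes share, with matches on either strand to ATTTGCAT, CCAAT and TATAAA in capitals.
H2ac1: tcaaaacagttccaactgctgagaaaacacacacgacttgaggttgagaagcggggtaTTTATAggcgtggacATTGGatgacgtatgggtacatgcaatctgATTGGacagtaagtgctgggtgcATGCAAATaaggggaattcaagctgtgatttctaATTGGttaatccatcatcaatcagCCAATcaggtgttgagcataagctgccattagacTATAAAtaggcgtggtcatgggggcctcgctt

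This window holds 1 octamer (ATTTGCAT), found in 1.60% of 32851 promoter windows of the same length, 4 CCAAT boxes (at least 1 in 33.8%) and 2 TATAAA matches (at least 1 in 12.4%), and no GGGCGG (32.7%). None of these motifs overlaps another in the window. The octamer was also found in the windows of *H2bc1*, where it is the same stretch of DNA read from the other strand, and of *H3f3b*. The windows of *H2bc1* and *H3f3b* each held 4 CCAAT and 1 TATAAA as well, so this makeup was not particular to the testis pair. The windows of *H1f6* and *H1f1* each held 1 CCAAT and 1 GGGCGG, and that of *H1f1* also held 1 TATAAA. That of *H3f3a* held 1 CCAAT and 4 GGGCGG matches, and some of the latter overlap one another. The window of *H1f0* held none of these motifs.

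*H2bc1* was counted in every library and *H2ac1* was not. The counts of *H2bc1* were 24, 10, 11 and 5 in the controls and 28, 7, 12 and 10 in the cKO mice. Replicate 1 was again the highest of both genotypes. Mean CPM was 0.841 ± 0.542 and 0.965 ± 0.617, with a log2 fold change of 0.19 ± 0.57 (SE; 95% interval −1.06 to 1.44; edgeR, adjusted p = 0.953), and the summed counts of 50 and 57 gave a ratio of 1.14 (exact 95% interval 0.764 to 1.697). *H2bc1* shares 88.3% of its coding bases with *H2bc4*, which held 340 to 576 counts per library, and their longest identical run of 155 bases exceeds a read of 150 bases. The expected counts of *H2bc1* were whole numbers in every library, so none was split in fractions with *H2bc4*. Whether reads from the shared run were assigned to the right gene was not tested.

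*H2ac1* had 0, 3, 0 and 2 counts in the controls and 2, 5, 6 and 1 counts in the cKO mice. All 4 control libraries and 2 cKO libraries were at or under 3 counts. The summed counts of 5 and 14 gave a ratio of 2.79 with an exact 95% interval of 0.950 to 9.91 for counting error alone, and edgeR gave a log2 fold change of 1.37 ± 1.12 (SE; adjusted p = 0.728). A difference between the genotypes was not detectable at this depth.

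*H2ax* encodes the H2A variant whose phosphorylated form marks DNA breaks and the silenced sex chromosomes (chr9:44245991-44247374, forward, 1 exon of 1384 bases). It measured 145.1, 147.3, 128.8 and 122.8 CPM in the controls and 117.4, 96.0, 115.2 and 119.9 CPM in the cKO mice. All cKO samples lay below all control samples, with a narrow gap between control replicate 4 and cKO replicate 4, and cKO replicate 2 was the lowest. Mean CPM was 136.0 ± 12.1 (SD, n = 4) in control and 112.2 ± 10.9 in cKO samples. The log2 fold change of −0.28 ± 0.09 (SE) stands for 17.5% less *H2ax* RNA, with a 95% interval of 0.720 to 0.944 for the fold. It did not pass the test over all genes in the fit without a replicate block (edgeR, unadjusted p = 0.00916, adjusted p = 0.418; DESeq2, adjusted p = 0.161).
With the replicate number as a block, a fit that called 7.25% of tested genes, *H2ax* did pass (log2 fold change −0.28; edgeR, adjusted p = 0.0354), but the numbers were not established as pairs. Without replicate 1 of both genotypes, each the highest of its genotype in pachytene marker RNA and left out after the data were seen, its log2 fold change was −0.27 (edgeR, adjusted p = 0.0760).

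The *H2ax* counts, 1484 to 2272 per library, were well above counting noise and no overlapping gene held reads. The lncRNA gene *Gm48853* covers 199 of its bases on the other strand and had 0 counts in every library. *Dpagt1*, which makes the first lipid-linked sugar of N-glycan synthesis and ends 743 bases away, had a log2 fold change of 0.24 (edgeR, adjusted p = 0.690). In coding bases *H2ax* and *H2ac1* were 73.6% identical with a longest shared run of 45 bases, shorter than a read.

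Proteins that phosphorylate H2AX, read the mark or act in sex chromosome silencing formed a list of 19 genes, all tested. None was called by edgeR, 1 was lower and 1 higher at an unadjusted p under 0.05, DESeq2 called 1, and the median log2 fold change was −0.03. The edgeR fit with the replicate block called 2 of the 19. They were *Mdc1*, lower in cKO, and *Scml2*, higher (edgeR with the block, adjusted p = 0.00216 and 0.0150). The gene called by DESeq2 was *Mdc1*, the adaptor that binds phosphorylated H2AX and spreads the mark along chromatin. *Mdc1* measured 349.2 to 438.7 CPM in control and 270.7 to 330.8 CPM in cKO samples, without overlap, with a log2 fold change of −0.39 ± 0.09 (SE; edgeR, adjusted p = 0.235; DESeq2, adjusted p = 0.00980). *Brca1*, which helps bring the kinase ATR to unsynapsed axes, lay between 71.8 and 77.3 CPM in control and 78.0 and 88.5 CPM in cKO samples, higher in all 4 (log2 fold change 0.15; edgeR, adjusted p = 0.563). *Scml2*, a Polycomb protein of germ cells that acts on sex chromosome silencing, had a log2 fold change of 0.21 (edgeR, unadjusted p = 0.0477, adjusted p = 0.558).

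**Figure D4:**
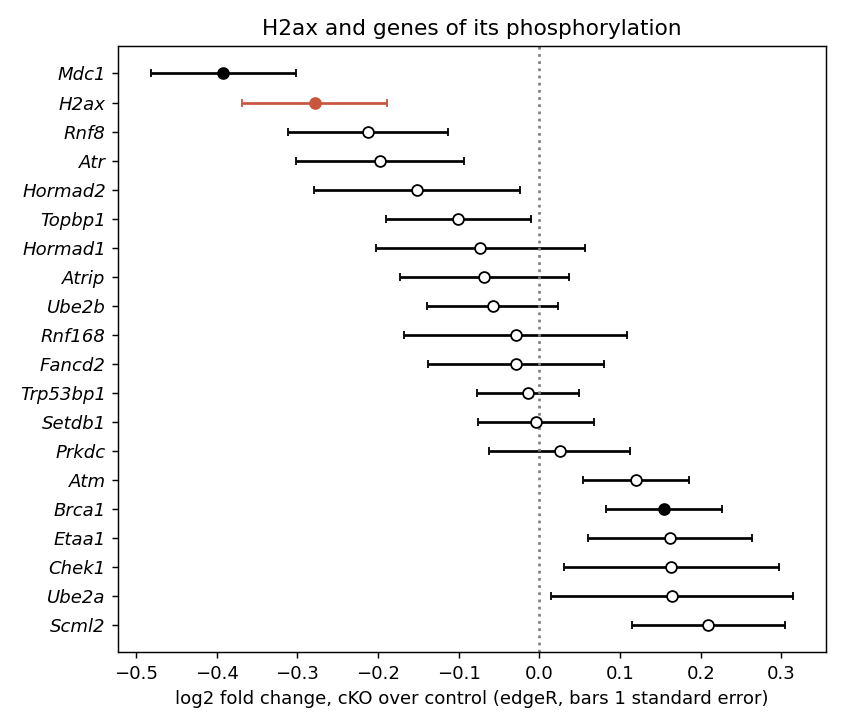
Log2 fold change (cKO over control) of *H2ax* (red) and the 19 genes of the H2AX list, ordered by size, with bars of 1 SE from the edgeR fit; filled points are genes whose control and cKO samples do not overlap. *Mdc1* (−0.39) and *H2ax* (−0.28) lie lowest, and *Brca1* (0.15) is the only other filled point.

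*H3f3a* and *H3f3b* encode the same H3.3 protein from different genes (chr1:180628051-180642178, reverse, 3 exons in the canonical transcript; chr11:115912738-115918788, reverse, 4 exons). Their coding sequences of 411 bases were identical at 316 positions (76.9%), and the longest identical run of 23 bases is shorter than a read, so reads from coding bases can be assigned to one gene or the other. *H3f3b* measured 973, 835, 839 and 742 CPM in the controls and 835, 752, 778 and 764 CPM in the cKO mice. The control samples spread wider than the cKO samples, whose range lay inside theirs. Mean CPM was 847 ± 95.2 (SD, n = 4) and 782 ± 36.5, a log2 fold change of −0.12 ± 0.08 (SE; 95% interval −0.30 to 0.07; edgeR, adjusted p = 0.704).

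*H3f3a* measured 412, 362, 334 and 338 CPM in the controls and 370.0, 341, 368 and 351 CPM in the cKO mice. Control replicate 1 was the highest sample and control replicates 3 and 4 were the lowest, so the cKO values lay between them. The log2 fold change was −0.02 ± 0.08 (SE; edgeR, adjusted p = 0.976), with a 95% interval of 0.880 to 1.11 for the fold. The antisense gene *H3f3aos* overlaps 707 exon bases and held 34 to 78 counts per library against 4330 to 6066 for *H3f3a*.

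The share of *H3f3b* in H3.3 TPM lay between 51.1% and 55.6% in the 8 libraries. *H3f3b* gave 53.3 ± 1.87% of H3.3 TPM in control and 52.1 ± 0.63% in cKO samples (SD, n = 4) and more than *H3f3a* in all 8 libraries. By counts, which favour the gene with the longer effective length, its share was 70.1 ± 1.18% and 68.6 ± 0.60%. The means by counts differed by more than the SD of either group, and those by TPM by more than the cKO SD only. Neither difference was tested. The summed H3.3 level was 1606 ± 120 TPM in control and 1507 ± 22.0 TPM in cKO samples, with overlapping ranges.

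**Figure D5:**
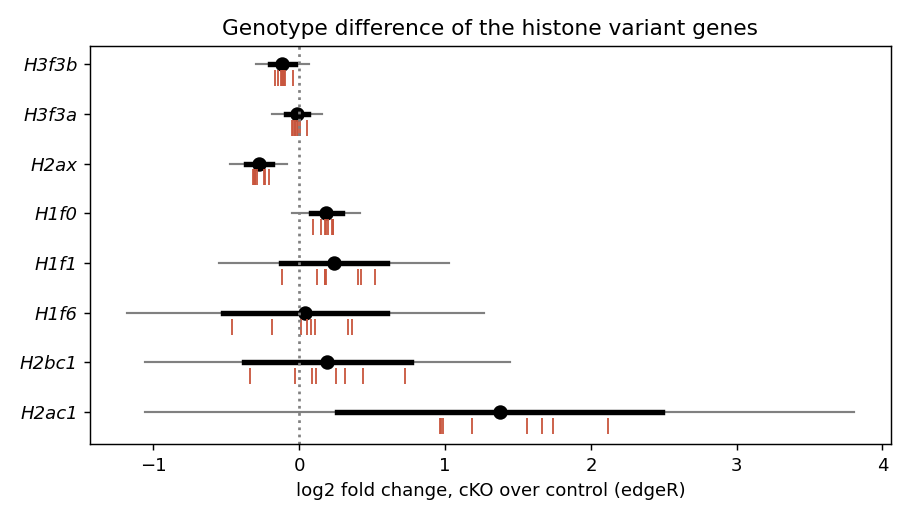
Log2 fold change (cKO over control) of each member from the edgeR fit over all tested genes; thick bars are 1 SE, thin lines the 95% interval, red ticks the values with 1 sample left out, and the dotted line marks 0. The interval of *H2ax*, −0.47 to −0.08, is the only one of the 8 that leaves out 0, and those of *H2ac1*, *H2bc1* and *H1f6* are the widest.

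Histone chaperones, which deposit or remove these variants, were a list of 18 genes, all tested. None was called by edgeR or DESeq2, 0 were lower and 2 higher at an unadjusted p under 0.05, and the median log2 fold change was 0.00. *Hira*, the chaperone that deposits H3.3 at active genes, had a log2 fold change of 0.02 (edgeR, adjusted p = 0.964), and *Daxx*, which deposits it at repeats, −0.15 (edgeR, adjusted p = 0.630). The 2 genes past the unadjusted threshold were *Dek* (log2 fold change 0.16), an H3.3-binding chromatin protein, and *Anp32e* (0.19), which removes H2A.Z (edgeR, adjusted p = 0.531 and 0.463).

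Of 18 histone variants outside the group, 8 were tested and 6 were at 0 in every library. None was called by edgeR or DESeq2, and 2 were lower at an unadjusted p under 0.05. They were *H2az1*, which encodes H2A.Z.1, and *Macroh2a1*, with log2 fold changes of −0.21 and −0.17 (edgeR, adjusted p = 0.516 and 0.506). *Macroh2a1* lay between 129 and 143 CPM in control and between 112 and 126 CPM in cKO samples, without overlap. *Cenpa*, the centromeric H3 variant, had a log2 fold change of 0.24 (edgeR, adjusted p = 0.646). Among 55 tested replication-dependent histone genes, 4 were lower and 1 was higher at an unadjusted p under 0.05, edgeR called none, and the median log2 fold change was 0.11.

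The genes whose pattern over the 8 samples was most like that of the testis-restricted histones were listed among 11931 genes with at least 5 CPM on average. For *H1f6* they were *Rbm27*, *Chmp4b*, *Gfm1*, *Mesd* and *Tpgs2*, with Pearson's r of 0.98 to 0.96. For *H2bc1* they were *Smurf2*, *Drg1*, *Psmb4*, *Mrpl15* and *Nsd2*, and *Smurf2* had r = 0.99 and Spearman's rho = 0.98, with r = 0.99 again without the 2 samples farthest from the median of *H2bc1*. For *H2ac1* they were *Atf5*, *Mpdu1*, *Leprot*, *9530068E07Rik* and *Nfe2l2*. These likenesses are descriptions over 8 libraries of genes with few counts, picked from a large number of candidates, and the samples share replicate 1 as the highest of each genotype for *H1f6* and *H2bc1*.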

How the data were processed

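RNA was measured in 8 mouse germ cell libraries, 4 control and 4 cKO, at 15 days. The libraries were poly(A)-enriched, not stranded and read as paired ends of 150 bases. The authors aligned reads with STAR 2.7.9a to mm39 and quantified Ensembl genes with RSEM 1.3.3. They deposited an expected count and a TPM for each gene and sample. Here expected counts were rounded to whole numbers (6.37% were not whole), genes that reached 1 TPM in any sample were kept, as in the study, and genotypes were compared with edgeR 4.0.16 (quasi-likelihood, TMM, Benjamini-Hochberg over 20187 genes, threshold 0.05) in R 4.3.3. DESeq2 1.42.0, limma 3.58.1, other scalings and filters, a replicate block and leaving out samples were alternatives. The code was tested on simulated data. GRCm39, the same build as mm39, gave positions and sequences, and RefSeq on GRCm38.p6 gave promoters. Named genes were the members, *Mgat2*, fixed lists of histone-related genes and cell markers, neighbours, and the 5 most alike genes. Members and lists were chosen with earlier results of these data known. Each library was 1 mouse; intervals of count ratios cover counting error only.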

Additional observations from a re-analysis of the deposited data

Results flagged for a closer look

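*H1f1* in control replicate 1, at 4.89 CPM, stood apart from the other 3 control samples, the nearest of which was at 2.79 CPM. The gap divided by the range of the group was 0.845, above the 95% limit of Dixon's test for 4 samples. The test was run on 18 groups of 4, and chance alone marks about 1 in 20. The same-numbered cKO sample was also the highest of its genotype, at 6.24 CPM.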

How the results depend on the processing

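The number of genes called moved from 8 to 304 with DESeq2, 0 with limma-voom, 0 with limma on log2(TPM + 1), 0 with log2(TPM + 0.1), 18 with upper-quartile scaling, 17 with library totals only, 35 with no TPM filter, 0 with the edgeR expression filter and 855 without replicate 1 of both genotypes, an alternative chosen after seeing the data. Leaving out 1 sample at a time gave 0 to 32 calls: 24, 2, 0 and 32 without control replicates 1, 2, 3 and 4, and 15, 1, 0 and 0 without the cKO replicates in the same order. The number of members called remained 0 in all of these. *Mgat2* passed the threshold with DESeq2 alone (log2 fold change −1.06, adjusted p = 0.0242).

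A block for the replicate number gave 1464 calls (7.25% of tested genes) and called 1 member, *H2ax*, at a log2 fold change of −0.28 (edgeR, adjusted p = 0.0354). It also called 2 of 19 genes of the H2AX list, 1 of 18 chaperones and 1 of 8 tested variants outside the group. Of the other histone lists it called 1 of 11 genes of mRNA processing, 1 of 7 tested genes of histone exchange and 2 of 55 tested replication-dependent histone genes. The numbers were not taken as pairs. Deviations from the group means of same-numbered samples correlated at 0.53, 0.14, 0.04 and 0.20 for numbers 1 to 4. The average was 0.23, against −0.07 for differently numbered samples. Number 3 was the lowest, though above the average of differently numbered samples. No test or threshold was applied, so these values do not settle whether the numbers mark pairs.

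*H2ax* was lower in cKO under every setting, from −0.29 to −0.25, and from −0.32 to −0.21 with 1 sample left out (adjusted p = 0.249 to 0.818, edgeR). The sign of *H1f6* turned with limma-voom (−0.075), log2(TPM + 1) (−0.018), log2(TPM + 0.1) (−0.050), the block (−0.022) and without replicate 1 of both genotypes (−0.15), and that of *H3f3a* with upper-quartile scaling (0.013) and without replicate 1 of both genotypes (0.036). The cause was not tested. With 1 sample left out, *H1f6* ranged from −0.46 to 0.36 and *H2bc1* from −0.34 to 0.73 (both negative without cKO replicate 1 or control replicate 4), *H1f1* from −0.12 to 0.52 (negative without cKO replicate 1) and *H3f3a* from −0.052 to 0.054 (positive without control replicate 1 or cKO replicate 2). *H2ac1* was dropped by the edgeR filter. Scalings moved the median of all genes by at most 0.03.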

Other observations

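Of 11 genes that act in the later exchange of histones for protamines, 7 were tested, and *Prm1*, *Prm3* and *Tnp2* were at 0 in every library. *Brdt*, the testis bromodomain protein that reads acetylated histones, measured 108.8 to 174.4 CPM in control and 89.0 to 105.2 CPM in cKO samples, without overlap (log2 fold change −0.54 ± 0.15, SE; edgeR, adjusted p = 0.354; DESeq2, adjusted p = 0.0376). The other tested genes of the list were called by neither tool.

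In the list of 11 genes for histone mRNA transcription and 3′ end processing, edgeR called none and 1 gene was lower at an unadjusted p under 0.05. *Srrt*, which links the cap-binding complex to histone mRNA processing, had a log2 fold change of −0.29 ± 0.09 (SE; edgeR, adjusted p = 0.354; DESeq2, adjusted p = 0.0826). *Slbp*, whose protein binds the histone stem-loop, had a log2 fold change of −0.10 (edgeR, adjusted p = 0.726).

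The other marker lists had no gene called by edgeR without the replicate block. DESeq2 called 1 marker of undifferentiated spermatogonia and 1 of round spermatids. At an unadjusted p under 0.05 there were 3 lower and 3 higher genes over all of these lists. The edgeR fit with the block called 1 undifferentiated marker (lower in cKO), 2 early meiotic markers (1 lower, 1 higher) and 3 round spermatid markers (all lower). The undifferentiated marker called by DESeq2 was *Id4* (edgeR log2 fold change −0.48, DESeq2 adjusted p = 0.0376), the only 1 of its 10 with a lower mean in cKO. The median log2 fold change was 0.20 for 10 markers of undifferentiated and 0.18 for 9 of differentiating spermatogonia, 0.08 for 10 early meiotic markers, −0.53 for 7 tested round spermatid markers and 0.07 for 11 Sertoli cell markers. Peritubular myoid, macrophage and erythroid markers had medians of 0.17, 0.06 and 0.13, and Leydig and endothelial markers −0.04 and −0.17.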
